A study of Danio rerio with 15 samples.

Results

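Whole brains of 4 female and 4 male adult zebrafish that had eaten a selenium-supplemented diet were compared on Affymetrix expression arrays. They were all fish of both sexes on that diet, 8 of the 15 in the series. All fish were 1 year old, sexually mature and of the strain Transgenic Mosaic 1, and each array held the brain RNA of 1 fish. The supplemented diet contained 5.6 ppm selenium, added as sodium selenite, and was fed for 14 days. The other 7 fish, 3 females and 4 males, ate a control diet with 1.4 ppm selenium for the same time. They enter here because they share the estimate of the spread and because they allow the same sex difference to be read in fish without the supplement. Expression is given in log2 units for each probe set, differences are female minus male, and a probe set was called at a Benjamini-Hochberg adjusted p under 0.05 in limma, fitted over 15502 probe sets. The p-values set each difference against the spread between fish within the groups. That spread was pooled over all 15 fish and taken as equal in every group.

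Selenium acts in the brain mainly through selenoproteins, enzymes that carry selenocysteine in their active site, such as the glutathione peroxidases and the iodothyronine deiodinases that activate or inactivate thyroid hormone. The adult zebrafish brain also makes oestrogen: its radial glia, which remain neural stem cells through life, hold high levels of the brain aromatase Cyp19a1b. Sex differences in gene expression of the fish brain have been looked for in steroid enzymes and receptors, in the gonadotropin and activin axis and in growth factors.

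Some arrays stood apart from the others, and a measure of RNA quality differed between the sexes on selenium. The 3′ probe set of the gapdh control exceeded its 5′ probe set by 1.84, 1.74, 1.33 and 1.44 log2 units in females on selenium, against 1.17, 0.66, 0.91 and 1.00 in males on selenium. These 2 sets of values did not overlap (difference 0.66, exact two-sided permutation p = 0.0286, the smallest that 4 against 4 can give). In the fish on the control diet the same measure was 0.98, 0.97 and 1.61 in females, against 0.99, 1.26, 1.02 and 0.89 in males. A larger gap between the 3′ and 5′ ends goes with shorter cDNA from the labelled RNA. The mean of 52 skeletal muscle genes was 6.11, 6.20, 6.30 and 6.28 in females on selenium, against 8.27, 6.50, 6.88 and 6.04 in males on selenium, so that male replicate 1 carried clear muscle signal. The mean of 41 retina and lens genes was 5.23, 6.04, 5.07 and 5.06 in the females, against 5.18, 7.39, 5.0 and 6.98 in the males, where replicates 2 and 4 were high. Neuronal genes were abundant on all 8 arrays, with a mean of 16 marker genes between 11.83 and 11.99. Array medians lay between 7.22 and 7.33 over all 15 arrays.

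**Figure D1:**
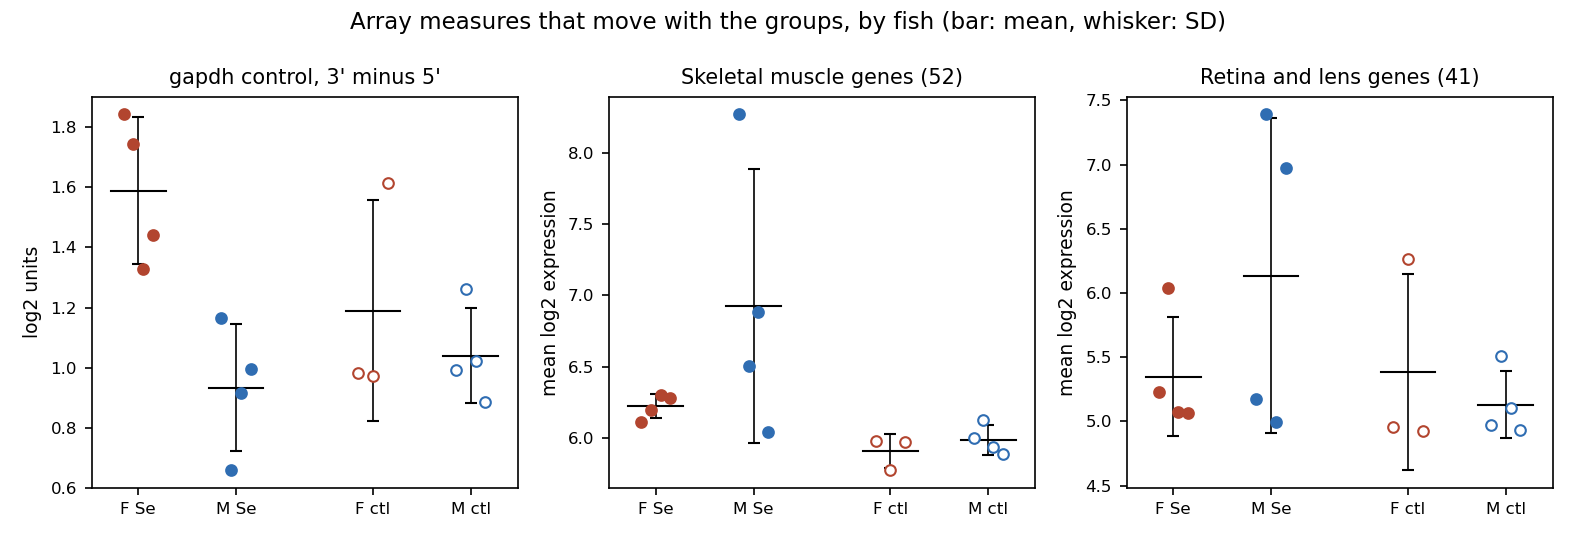
Each point is 1 fish: females (red) left of males (blue) for the selenium diet (filled, F Se and M Se) and for the control diet (open, F ctl and M ctl). Bars are means and whiskers SD. The left axis gives the gapdh 3′ minus 5′ difference in log2 units and the others the mean log2 expression of 52 muscle and 41 retina and lens genes. The gapdh values of females on selenium (1.33 to 1.84) lie above those of the males (0.66 to 1.17), and muscle signal peaks at 8.27 in 1 male.

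On selenium, 162 of 15502 probe sets (1.05%) differed between females and males. Of these, 55 (0.355%) were higher in females and 107 (0.69%) were lower. With each array centred on its median, which moves the median of all differences by 0.04, the split was 134 higher and 93 lower, so the excess of lower calls depends on the scaling. The called differences had a median size of 0.58 log2 units, and 13 exceeded 1. In 161 of the 162 the 4 females did not overlap the 4 males, a pattern seen in 1574 probe sets (10.2%) overall. An unadjusted p under 0.05 was reached by 2877 probe sets (18.6%), 1432 higher and 1445 lower in females, where 775 would be expected without any difference. Counted by the brightest probe set of each of 8793 genes, 44 genes were called higher and 45 lower (1.01%). In whole brain, fewer cells of a type and less RNA per cell cannot be told apart.

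The list of called genes rested strongly on which arrays and covariates entered. Leaving out 1 of the 15 fish gave between 2 calls, without male selenium replicate 4, and 328, without female selenium replicate 3. Without male selenium replicates 2, 1 or 3 the counts were 4, 16 and 20. Fitted on the 8 arrays of the selenium diet alone, 4 probe sets were called: f13a1a.1, tuba5, leo1 and slc25a11. The gapdh 3′ minus 5′ difference as a covariate left 1 call, itprid2 (−1.08, against −0.68 ± 0.12 without the covariate), which is named here after its values were seen. That measure did not overlap between the sexes on selenium. The fit with it therefore cannot tell sex and RNA quality apart, here or for the genes below. The muscle and retina means as covariates left 0 calls, with 1303 probe sets at an unadjusted p under 0.05. That fit kept 9 residual degrees of freedom, against 11 without covariates. In it leo1 differed by −1.36 (−1.26 without covariates), dio2 by −1.17 (−1.12), f13a1a.1 by 2.85 (2.57) and sdhb by −0.59 (−0.52). Smaller than without covariates were atf3 (1.29 against 1.55), hmgcs1 (0.81 against 0.94) and ckmt2a (−1.04 against −2.45). The part of muscle and retina signal was not tested. Every one of the 162 kept its direction in all 26 alternative fits in which it was tested. In 161 of the 162 the sexes did not overlap, so leaving out fish could not turn the sign. Only fits that changed the values or added covariates could do so. Leaving out a fish on the control diet changed the shared spread alone and not the difference on selenium. The gene leo1 was the only one called again whichever single fish was left out. Of the genes described next, dio2 was called in 13 of those 15 fits, tuba5 in 11, pax6a in 9, ranbp9 in 6, atf3 in 5, hmgcs1, bdnf and elavl3 in 3, inhbaa and cry1a in 2 and nfil3-5 in 1.

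**Figure D2:**
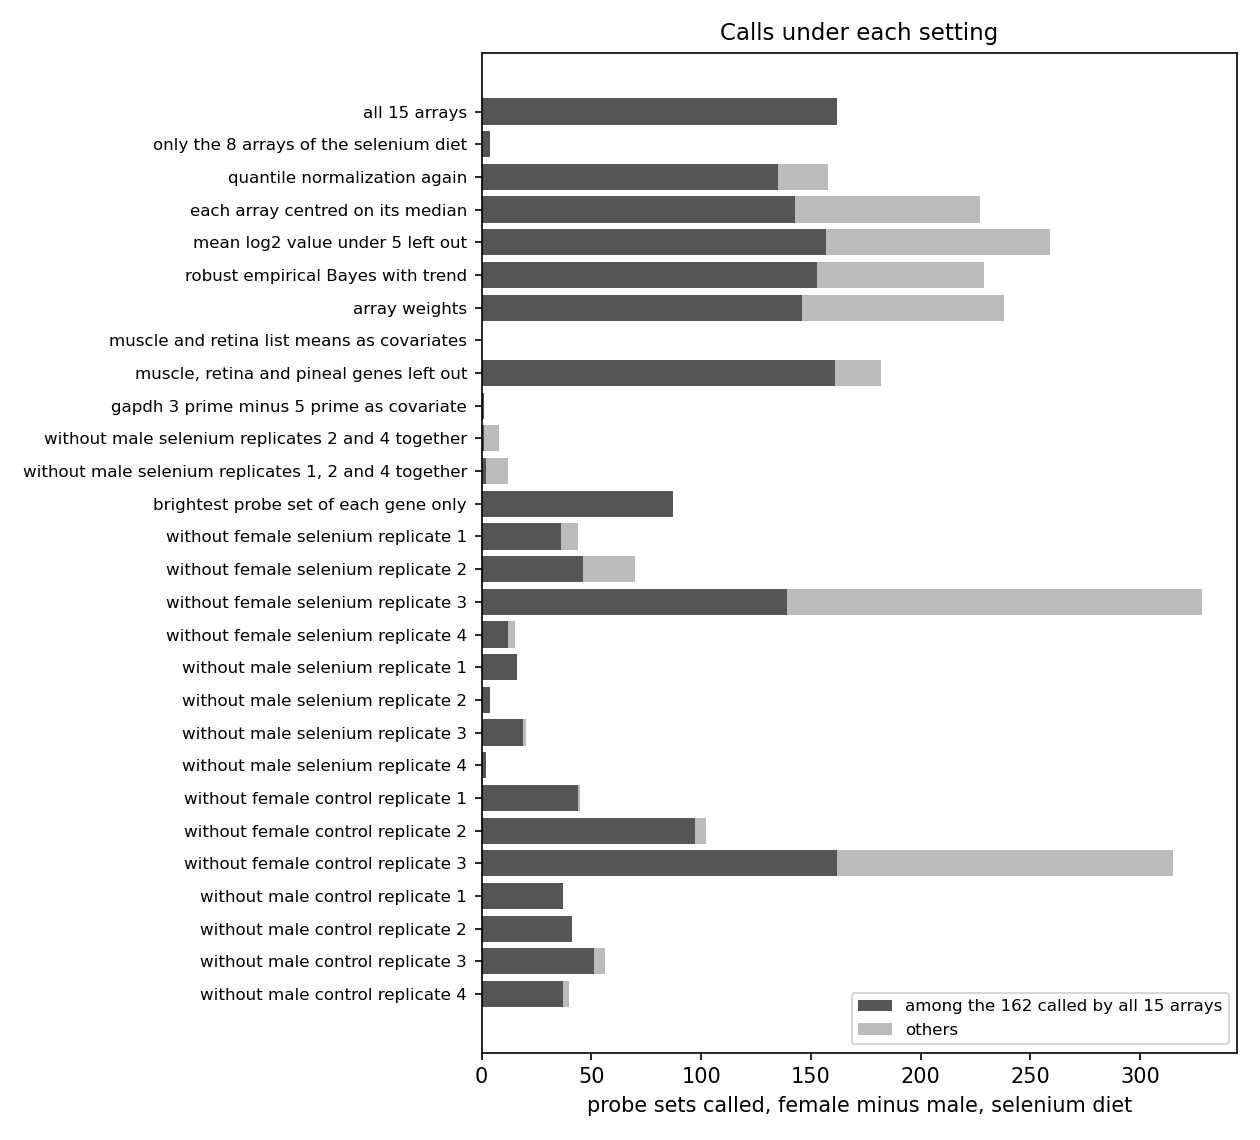
Bars give the number of probe sets called between females and males on selenium under each setting, with those among the 162 in dark grey and others in light grey. The count runs from 0 with muscle and retina covariates to 328 without female selenium replicate 3.

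The largest measured rise in females was that of f13a1a.1, which encodes the A subunit of coagulation factor XIII, the transglutaminase that cross-links fibrin. Its values were 6.95, 6.24, 6.06 and 7.27 in females on selenium, against 3.87, 3.91, 4.05 and 4.41 in males on selenium. The difference was 2.57 ± 0.50 (SE, limma adjusted p = 0.0405), and the lowest female lay above the highest male. All 4 males lay under 5, the level below which means were left out in the alternative with a filter on low signal, so the size of the difference rests on a dim value in males and no fold is given. In the fish on the control diet the difference was 2.15 ± 0.54, with a value in every female above every male. The gene was called again in 4 of the 15 fits that leave out a fish. With the gapdh covariate its difference on selenium was 2.74.

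The transcription factor gene atf3, a basic leucine zipper regulator induced by cell stress and neuronal injury, had 8.17, 8.01, 8.72 and 9.69 in females on selenium, against 7.26, 6.90, 7.48 and 6.73 in the males. The 2 groups did not overlap, and the rise was 1.55 ± 0.30 log2 units or 2.94-fold (limma adjusted p = 0.0405). On the control diet atf3 differed by −0.02 ± 0.33 between the sexes, although the difference between the diets did not pass adjustment (unadjusted p = 0.0035). With the gapdh covariate atf3 differed by 1.65 on selenium. The α-tubulin gene tuba5 had 9.66, 9.65, 9.40 and 9.63 in females, against 8.74, 8.61, 8.48 and 8.51 in males. That is a rise of 1.00 ± 0.16 (limma adjusted p = 0.0218) without overlap, and on the control diet the difference was 0.58 ± 0.17. With the gapdh covariate tuba5 differed by 0.67 on selenium. The name tuba5 is that of the platform annotation: the identifier of this probe set shares its cluster number with a probe set annotated to the muscle gene atp2a1, and the assignment could not be checked against probe sequences.

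The gene hmgcs1, whose product makes HMG-CoA at the start of the sterol pathway, had 11.19, 10.65, 10.64 and 10.43 in females on selenium, against 9.86, 9.78, 9.96 and 9.56 in the males. It rose by 0.94 ± 0.19 or 1.92-fold (limma adjusted p = 0.0407), and the lowest female lay above the highest male. With the gapdh covariate its difference was 0.44, and in fish on the control diet it was 0.56 ± 0.20.

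Other genes called higher in females covered several functions. In the cytoskeleton stood camsap1b (0.70 ± 0.15), a protein of microtubule minus ends. Chromatin and replication were represented by ssrp1a (0.85 ± 0.16), a subunit of the histone chaperone FACT, bcl7ba (0.64 ± 0.13), a subunit of BAF remodellers, and mcmbp (0.74 ± 0.15), which binds the MCM helicase. The developmental transcription factors pax6a (0.57 ± 0.10) and sp8b (0.57 ± 0.11), both active in neural progenitors of the forebrain, also rose. In pax6a the females had 10.60, 10.67, 10.35 and 10.40, against 9.96, 9.82, 9.96 and 10.00 in the males, again without overlap. The differences were 0.34 for ssrp1a, 0.32 for pax6a, 0.46 for camsap1b and 0.43 for thbs1b with the gapdh covariate. A second, dimmer probe set of ssrp1a differed by −0.02 ± 0.15. The extracellular matrix gene thbs1b rose by 0.66 ± 0.14, the connexin gene gjc4b by 0.55 ± 0.11, the cyclophilin gene ppil1 by 0.65 ± 0.14 and the ribosomal protein gene rps16 by 0.49 ± 0.11. Further large rises were those of nfil3-5, described with the clock genes, tram2 (0.60 ± 0.09), wdr26b (0.56 ± 0.09 on a dim set, against 0.02 ± 0.10 on its brightest), zgc:55461 (0.79 ± 0.16) and si:ch211-188c16.1 (0.65 ± 0.14). The last had low signal, with 3.85 to 4.13 in males and 4.53 to 5.01 in females. In tram2 the males were dim as well (4.96 to 5.09). With the gapdh covariate the difference was 0.97 for mcmbp, 0.65 for gjc4b, 0.81 for zgc:55461, 0.68 for si:ch211-188c16.1 and 0.64 for ppil1. Those of bcl7ba, sp8b, tram2, the called set of wdr26b and rps16 were 0.57, 0.49, 0.49, 0.46 and 0.35.

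The call with the smallest p was leo1, a subunit of the PAF1 complex that travels with RNA polymerase II. Its values were 10.80, 10.68, 10.76 and 10.74 in females on selenium, against 11.98, 11.72, 12.17 and 12.16 in the males. The females were 1.26 ± 0.11 log2 units or 2.4-fold lower (limma adjusted p = 0.000414), and hardly varied among themselves (SD 0.05, against 0.21 in the males). On the control diet the difference was −0.29 ± 0.12. The difference between the diets was −0.97 (95% interval −1.33 to −0.62), with an unadjusted p of 4.4e-05 that did not pass adjustment over all probe sets (0.44). A second, equally bright probe set assigned to leo1 disagreed: it differed by −0.26 ± 0.13 (limma adjusted p = 0.306). With the gapdh covariate the first probe set was lower by a similar amount (−1.26, adjusted p = 0.0685).

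**Figure D3:**
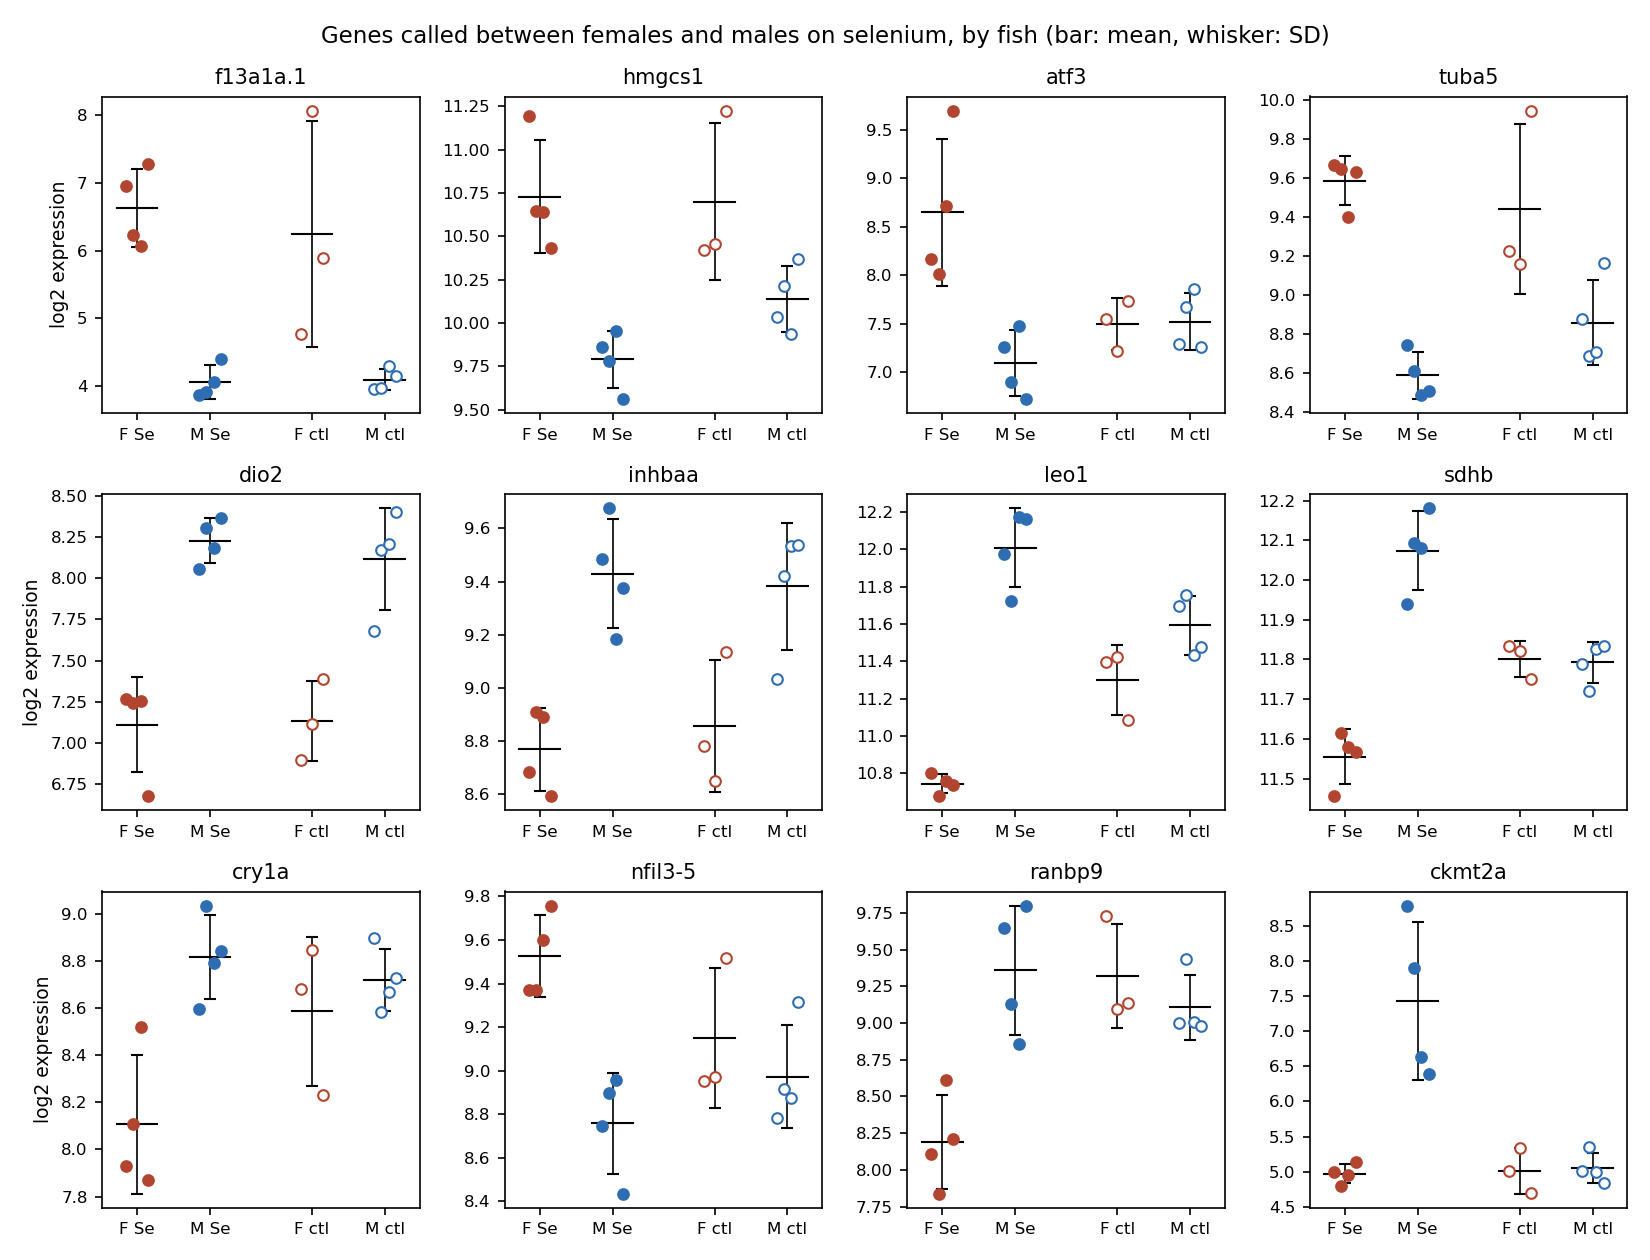
Log2 expression of 12 called genes in each fish, females (red) left of males (blue), filled for the selenium diet (F Se, M Se) and open for the control diet (F ctl, M ctl). Bars are means and whiskers SD. In f13a1a.1, dio2 and inhbaa the sexes are spaced alike on both diets (f13a1a.1 differs by 2.57 on selenium and 2.15 on the control diet), whereas in atf3 and ckmt2a the control-diet groups lie together (−0.02 and −0.04). The difference between the diets was called for none of the 12.

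The selenoprotein gene dio2, whose product converts the prohormone T4 to active T3 in the brain, had 7.27, 7.24, 7.26 and 6.68 in females on selenium, against 8.05, 8.30, 8.19 and 8.36 in the males. It fell by 1.12 ± 0.17 log2 units in females, or 2.17-fold (limma adjusted p = 0.0205). In the other 7 fish dio2 was lower in females by nearly as much (−0.98 ± 0.18, unadjusted p = 9.44e-05). With the gapdh covariate dio2 differed by −1.30 on selenium. The inhibin and activin subunit gene inhbaa had 8.68, 8.91, 8.89 and 8.59 in females on selenium, against 9.48, 9.68, 9.18 and 9.38 in males. It fell by 0.66 ± 0.14 (limma adjusted p = 0.0459), without overlap, and the difference on the control diet was −0.53 ± 0.15. With the gapdh covariate inhbaa differed by −0.78 on selenium.

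The calls lower in females included some genes of nerve terminals and the neuronal membrane. By their brightest probe sets, 0 of the 16 genes of the neuronal marker list were called. Of that list, elavl3 and sncgb were called on dimmer probe sets, described below. Both subunits of the GTPase-activating complex for Rab3, which acts on synaptic vesicles, were called: rab3gap1 fell by 1.01 ± 0.20 and rab3gap2 by 0.61 ± 0.13 (limma adjusted p = 0.0407 and 0.0459). They were called again in 5 and 2 of the 15 fits that leave out a fish. On the control diet they differed by 0.24 ± 0.22 and 0.01. With the gapdh covariate their differences on selenium were −1.31 and −0.58. The vesicle SNARE gene vamp1a had 9.05, 8.84, 8.92 and 8.90 in females, against 9.42, 9.50, 9.64 and 9.57 in males. That was a fall of 0.61 ± 0.08 (limma adjusted p = 0.0143), and it was called in 14 of the 15 fits that leave out a fish. With the gapdh covariate vamp1a differed by −0.64. The synaptic scaffold gene cnksr2b had 9.67, 9.59, 9.86 and 9.35 in females, against 10.35, 10.57, 10.38 and 10.42 in males, a fall of 0.81 ± 0.11 (limma adjusted p = 0.0198). On the control diet cnksr2b did not differ by more than its error (0.00 ± 0.12). It was called in 13 of the 15 fits that leave out a fish and differed by −0.55 with the gapdh covariate. The neurotrophin gene bdnf fell by 0.59 ± 0.12, with 9.01, 9.18, 9.10 and 8.93 in females and 9.46, 9.78, 9.63 and 9.71 in males, and its difference was −0.28 with the gapdh covariate. The sodium pump β-subunit genes atp1b1b (−0.39 ± 0.06) and atp1b2a (−0.42 ± 0.09) were called lower as well. A nearly equally bright set of atp1b2a differed by −0.09 ± 0.06. Its other, dimmer sets differed by −0.77 ± 0.17 and −1.01 ± 0.26 and were not called (limma adjusted p = 0.0506 and 0.076). The called set of atp1b2a differed by −0.25 with the gapdh covariate. The gene nsfa, whose product disassembles SNARE complexes, was called on 1 probe set (−0.58 ± 0.12, and −0.21 with the gapdh covariate), but its brighter set differed by −0.07 ± 0.07 (adjusted p = 0.673). With the gapdh covariate atp1b1b differed by −0.32. In the 15 fits that leave out a fish, atp1b1b was called in 10, and atp1b2a and nsfa in 2 each. Of these genes, rab3gap2, vamp1a, bdnf, atp1b1b, atp1b2a and nsfa were picked after their values were seen, so the grouping describes the calls and carries no test.

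Many of the lower calls came from a probe set that was not the brightest of its gene, while the brightest one was not called. A dim set means this rank within the gene, and some were nearly as bright, as in ranbp9 (means 8.97 and 9.16). Of the 76 called lower with a gene symbol, 31 (40.8%) were not the brightest probe set of their gene, against 2 of 46 (4.35%) of those called higher and 18.5% of all probe sets with a symbol. The 31 had a median difference of −0.66, while the brightest probe sets of the same 30 genes had a median of −0.11 and none was called. The 31 were picked because they were called, so part of that gap was fixed in advance. In all genes with several probe sets, the 2002 that were not the brightest had a median of −0.05, against 0.03 for the brightest. For elavl3, the pan-neuronal RNA-binding protein gene, the called probe set fell by 0.83 ± 0.18 (6.83, 6.51, 7.21 and 6.63 in females, 7.44, 7.77, 7.67 and 7.64 in males), and the brightest one differed by −0.33 ± 0.10 (adjusted p = 0.117). The same held for grin1a, the obligatory NMDA receptor subunit (−0.78 ± 0.17 against 0.08 ± 0.07 on the brightest set), nsg2, a neuronal endosome protein (−1.06 ± 0.22 against 0.02 ± 0.06), and sgce, ε-sarcoglycan (−0.99 ± 0.21 against 0.06 ± 0.11). It also held for ranbp9, a scaffold protein that binds Ran (−1.17 ± 0.22 against −0.12 ± 0.09), astn1, a neuronal migration protein (−0.74 ± 0.13 against 0.09 ± 0.09), and slc25a11, the mitochondrial oxoglutarate carrier (−0.76 ± 0.12 against −0.17 ± 0.08). With the gapdh covariate, the called probe sets of elavl3, grin1a, nsg2 and sgce differed by −0.32, −0.43, −0.38 and −0.13, those of astn1 and slc25a11 by −0.36 and −0.47, and that of ranbp9 by −1.13. Probe sets differ in distance from the 3′ end and in the transcript they detect. The part of RNA quality in these values was not tested, since that fit cannot tell it apart from sex.

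The remaining large falls were mixed in function. The RNA helicase gene ddx17 fell by 1.24 ± 0.25 on a dim set, and its brightest set, at −0.56 ± 0.14, was not called. The sphingosine 1-phosphate receptor gene s1pr1 (a dim set) was lower by 1.18 ± 0.24, the tetraspanin gene tspan34b by 1.12 ± 0.17, the gene eef2l2 (a dim set), named after elongation factor 2, by 1.09 ± 0.20, epas1b, which encodes a hypoxia-inducible factor, by 0.86 ± 0.18, and abhd2a, a lipid hydrolase gene, by 0.85 ± 0.15. The calcium pump gene atp2a2a was lower by 0.81 ± 0.16 on a dim set, and zgc:162239 by 0.91 ± 0.16. With the gapdh covariate the differences were −0.38 for ddx17, −0.49 for s1pr1, −0.50 for eef2l2, −0.38 for epas1b and −0.48 for abhd2a, while that of tspan34b was −1.33. Those of atp2a2a and zgc:162239 were −0.72 and −0.76. The brightest sets of s1pr1, eef2l2 and atp2a2a differed by −0.19 ± 0.13, −0.13 ± 0.06 and −0.10 ± 0.13. The mitochondrial creatine kinase gene ckmt2a fell by 2.45 ± 0.39, the largest fall (limma adjusted p = 0.0227), with 5.0, 4.80, 4.95 and 5.14 in females and 8.78, 7.90, 6.64 and 6.39 in males. The females lay near 5, the level of the filter on low signal, so the size of this fall rests on dim values in females. Females were also dim in tspan34b (4.78 to 5.48). The gene ckmt2a belongs to the skeletal muscle list. Male replicate 1, with the highest muscle mean, was also highest in ckmt2a. Male replicate 4 had the lowest muscle mean on selenium (6.04, against 6.11 to 6.30 in females). Its ckmt2a value of 6.39 still lay above every female. Male replicate 2 lay above replicate 3 in ckmt2a (7.90 and 6.64) but below it in muscle mean (6.50 and 6.88). With the muscle and retina means as covariates the difference of ckmt2a was −1.04 (limma adjusted p = 0.479). The gene was called again in 13 of the 15 fits that leave out a fish, including that without male replicate 1. The part of muscle signal was not tested.

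Among the 29 measured genes of sex steroid synthesis and reception, 0 were called, 15 were higher and 14 lower in females, and their median difference was 0.02, as for all genes (0.02). The oestrogen receptor gene esr1 had 6.87, 6.68, 7.01 and 7.27 in females on selenium, against 6.51, 6.65, 6.51 and 6.63 in males, a difference of 0.38 ± 0.12 without overlap that missed the threshold (limma adjusted p = 0.12). The brain aromatase gene cyp19a1b had 12.28, 12.04, 12.18 and 12.22 in females, against 11.86, 12.01, 11.80 and 11.92 in males (0.29 ± 0.10, adjusted p = 0.161). The gene hsd17b3, whose mammalian product makes testosterone from androstenedione, differed by −0.28 ± 0.12 on selenium (adjusted p = 0.228) and by −0.80 ± 0.13 on the control diet (unadjusted p = 2.95e-05). The difference of 0.51 between those 2 values had an unadjusted p of 0.012 and did not pass adjustment. The enzyme genes hsd11b1la (0.34 ± 0.12) and, in the growth factor axis, igf1 (−0.88 ± 0.23, adjusted p = 0.0825) also missed the threshold. Of igf1, which encodes insulin-like growth factor 1, the values were 5.81, 5.74, 6.63 and 6.39 in females, against 6.76, 7.34, 6.71 and 7.27 in males. On the control diet igf1 differed by −1.22 ± 0.25, and with the gapdh covariate it differed by −0.30 on selenium. Of 15 genes of the growth hormone and IGF axis and 5 pituitary hormone genes, 0 were called, and of 25 genes of the reproductive axis only inhbaa was.

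Genes of cholesterol synthesis were the list with the largest shift towards females. All 12 measured were higher in females on selenium, with a median of 0.55, although only hmgcs1 was called, and in 7 of them the sexes did not overlap. Over all genes, 4877 of 8793 were higher, 511 of them without overlap. The mean of the 12 was 9.25, 9.11, 8.96 and 9.0 in females, against 8.54, 8.49, 8.49 and 8.09 in males, so the sexes did not overlap. The sterol-ring genes msmo1 (0.91 ± 0.23, limma adjusted p = 0.0725) and nsdhl (0.81 ± 0.21, adjusted p = 0.0766), and fdft1 (0.50 ± 0.13, adjusted p = 0.0767), the squalene synthase gene, lay just above the threshold. The last-step reductase gene dhcr7 had 10.82, 10.38, 10.78 and 10.83 in females, against 10.09, 7.32, 9.42 and 7.32 in males, a difference of 2.16 ± 0.74 (adjusted p = 0.148) carried by male replicates 2 and 4. Those were the males with retina signal. On the control diet dhcr7 was low in a female (7.74) and a male (7.46) whose retina means were 4.93 and 4.97. The cause of the low values was not tested. In the fish on the control diet the list median was 0.16, and the means overlapped (8.97 to 9.01 in females, 8.59 to 9.04 in males). The list median was 0.35 with the gapdh covariate and 0.52 without male replicates 2 and 4.

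Nuclear genes of the mitochondrial respiratory chain leaned the other way. Of 71 measured, 62 were lower in females on selenium, 24 of them without overlap, with a median of −0.11. Over all genes, 3916 of 8793 were lower, 394 of them without overlap. In the succinate dehydrogenase subunit gene sdhb, the only one called, the values were 11.46, 11.62, 11.58 and 11.57 in females, against 11.94, 12.09, 12.08 and 12.18 in males. It fell by 0.52 ± 0.07 (limma adjusted p = 0.0134), was called in 14 of the 15 fits that leave out a fish, and differed by 0.01 ± 0.07 on the control diet. The complex III genes uqcrfs1 (−0.35 ± 0.08, adjusted p = 0.0506) and uqcrh (−0.23 ± 0.06), the complex II gene sdhc (−0.37 ± 0.11) and the complex I genes ndufs1 (−0.26 ± 0.07) and ndufv1 (−0.29 ± 0.08) were not called. The list mean lay between 11.59 and 11.71 in females and between 11.72 and 11.79 in males, without overlap, and on the control diet between 11.64 and 11.74 in females and 11.64 and 11.72 in males. The list median was −0.12 with the gapdh covariate and −0.15 with the muscle and retina covariates. With each array centred on its median it was −0.07, and that of all genes was then 0.07. Other genes of energy metabolism among the calls, picked after their values were seen, were pgk1 (−0.38 ± 0.07) and pgm1 (−0.67 ± 0.10 on a dim set) of sugar metabolism, idh3b (−0.34 ± 0.07) of the citric acid cycle and coq7 (−0.55 ± 0.10) of ubiquinone synthesis. The brightest set of pgm1 differed by −0.33 ± 0.08 (adjusted p = 0.0605), and with the gapdh covariate idh3b and coq7 differed by −0.22 and −0.35. In that fit pgk1 differed by −0.34, the called set of pgm1 by −0.56 and sdhb by −0.41. The 60 genes of mitochondrial ribosomes had a median of −0.07 and the 72 of cytosolic ribosomes 0.02, with rps16 the 1 call between them.

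**Figure D4:**
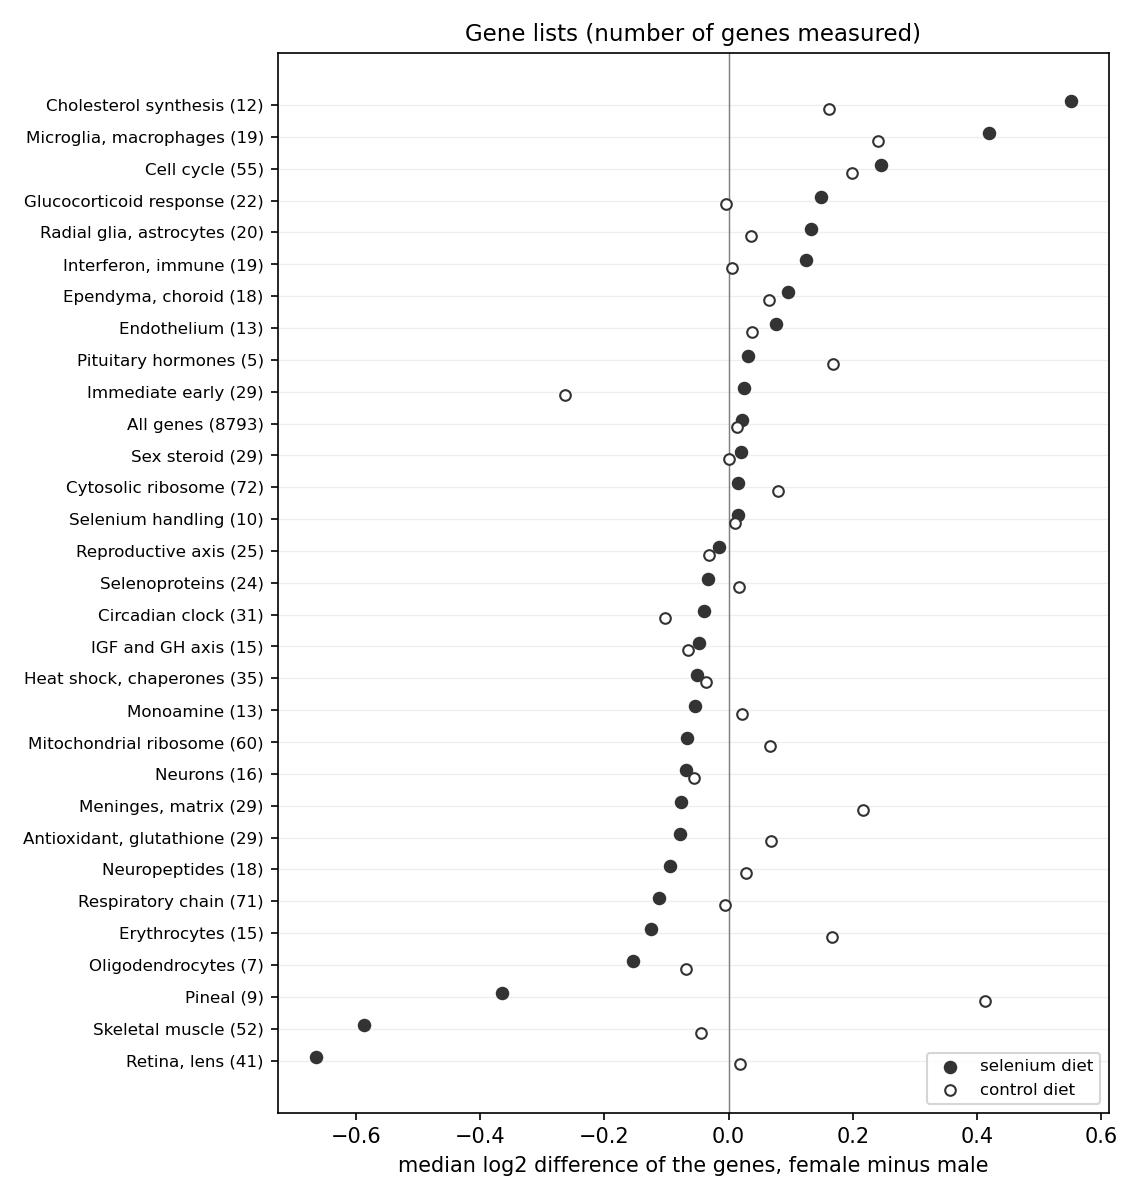
For each list of genes (number measured in brackets), the median female minus male difference in log2 units on selenium (filled) and on the control diet (open), using the brightest probe set of each gene. Cholesterol synthesis is at 0.55 on selenium and 0.16 on the control diet. Skeletal muscle (−0.59) and retina and lens (−0.66) are the lowest on selenium and lie near 0 on the control diet.

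Of 24 selenoprotein genes on the array, dio2 was the only one called, and the median of the list was −0.03 (9 higher and 15 lower in females). The glutathione peroxidase gene gpx1a differed by −0.25 ± 0.10 on selenium (adjusted p = 0.218) and by 0.25 ± 0.11 on the control diet, and with the gapdh covariate the value on selenium turned to 0.057. The endoplasmic reticulum selenoprotein gene selenon (−0.34 ± 0.09, adjusted p = 0.0863) and the mitochondrial selenoo1 (−0.34 ± 0.12, adjusted p = 0.149) were not called. The selenium transport protein gene selenop differed by −0.06 ± 0.11, with 10.97, 11.12, 11.04 and 10.93 in females and 11.05, 10.93, 11.10 and 11.20 in males, which overlapped. The deiodinase gene dio1 varied widely within both sexes, with 6.65, 6.38, 5.01 and 6.54 in females and 6.51, 6.93, 4.83 and 5.12 in males. Of 29 antioxidant and glutathione genes 0 were called (median −0.08), among them prdx5, a peroxiredoxin (−0.24 ± 0.07), gstp1.2, a glutathione transferase (−0.26 ± 0.08), and sod2, the mitochondrial superoxide dismutase (−0.24 ± 0.09). The chaperone list of 35 genes had a median of −0.05 and 0 calls, and in it hsp70.3 differed by −1.34 ± 0.36 (adjusted p = 0.0823) and hsp90aa1.2 by −0.39 ± 0.12. Of 22 glucocorticoid response genes 0 were called and 18 were higher in females (median 0.15), with tsc22d3, a glucocorticoid-induced leucine zipper gene, at 0.34 ± 0.09 (adjusted p = 0.0951).

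In the circadian clock list of 31 genes, 1 was called in each direction. The repressor cryptochrome gene cry1a fell by 0.71 ± 0.16 (limma adjusted p = 0.0489), with 7.93, 8.11, 8.52 and 7.87 in females against 8.60, 9.04, 8.79 and 8.84 in males. The transcriptional repressor gene nfil3-5 rose by 0.77 ± 0.16 (adjusted p = 0.0459), with 9.37, 9.37, 9.60 and 9.76 in females against 8.75, 8.89, 8.96 and 8.43 in males. In the fit with the gapdh covariate, cry1a differed by −0.22 (adjusted p = 0.733) and nfil3-5 by 0.77. Neither overlapped between the sexes, and on the control diet the differences were −0.13 ± 0.17 for cry1a and 0.18 ± 0.17 for nfil3-5. The activator gene bmal1b had 6.58, 7.46, 7.26 and 6.78 in females, against 7.90, 7.93, 7.68 and 8.57 in males, but its difference of −1.0 ± 0.31 was not called (adjusted p = 0.12). The nuclear receptor gene nr1d2b (−0.34 ± 0.08, adjusted p = 0.0584), the clock-controlled ciarta (−0.78 ± 0.25) and the cryptochrome gene cry4 (0.35 ± 0.12) were not called. Dim probe sets of cry2 (−0.68 ± 0.14) and tefa (−0.60 ± 0.13), noticed after their values were seen, were called lower, but the brightest set of cry2 differed by 0.14 ± 0.11 and that of tefa by −0.27 ± 0.12 (adjusted p = 0.236). The called sets of cry2 and tefa differed by −0.42 and −0.58 with the gapdh covariate. The labels give no hour of sampling. Of the 29 immediate early genes, only atf3 was called, and the list median was 0.03.

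In markers of brain cell types, 0 genes were called in the lists of neurons, radial glia and astrocytes, oligodendrocytes, microglia and macrophages, endothelium, meninges, ependyma and blood by their brightest probe sets. Of 16 neuronal genes 12 were lower in females on selenium (median −0.07, against 0.02 for all genes). With each array centred on its median, these medians were −0.02 and 0.07. The mean of the 16 lay between 11.83 and 11.89 in females and between 11.91 and 11.99 in males, and on the control diet between 11.84 and 11.91 in females and 11.95 and 11.99 in males. Neurons were the only one of the 30 lists whose means did not overlap on both diets on the same side. The sodium pump gene atp1a3b, found in neurons, differed by −0.45 ± 0.10 (adjusted p = 0.0542). The γ-synuclein gene sncgb was called on a pair of dimmer probe sets (−0.74 ± 0.15 and −0.60 ± 0.13) and differed by −0.15 ± 0.11 on its brightest. The called sncgb sets differed by −0.41 and −0.42 with the gapdh covariate. Of 20 genes of radial glia and astrocytes 14 were higher in females (median 0.13), among them slc1a3a, a glutamate transporter gene (0.33 ± 0.10), glula, a glutamine synthetase gene (0.20 ± 0.07), and sox2, a stem cell factor gene (0.36 ± 0.12). Of 7 oligodendrocyte genes 6 were lower (median −0.15), with the lineage factor gene olig2 at −0.31 ± 0.12 and the myelin claudin gene cldnk at −0.30 ± 0.10. In the list of 13 monoamine genes 11 were lower, and the dopamine receptor gene drd2a, with 6.39, 6.01, 6.59 and 6.75 in females against 7.12, 7.24, 7.07 and 7.30 in males, came close to a call (−0.75 ± 0.17, adjusted p = 0.054). The dopamine transporter gene slc6a3 (−0.40 ± 0.13) and the receptor gene drd3 (−0.37 ± 0.14) were not called. The median of the monoamine list was −0.05. It was −0.21 without female selenium replicate 2 and 0.008 without male selenium replicate 4. With the gapdh covariate drd2a, slc6a3 and drd3 differed by −0.54, −0.04 and −0.13. With the muscle and retina covariates they differed by −0.93, −0.18 and −0.07.

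Markers of microglia and macrophages were higher in females, though mainly in 1 fish. Of 19 genes 16 were higher (median 0.42), and their mean was 7.73, 8.58, 7.80 and 7.68 in females, against 7.67, 7.44, 7.50 and 7.51 in males. Without female replicate 2, the highest, the median was 0.11. In c1qc, a complement gene, that fish had 7.41 and the other females 6.10, 5.99 and 5.99, against 5.31, 5.17, 5.68 and 5.48 in males. The leukocyte phosphatase gene ptprc (1.03 ± 0.35), coro1a (0.82 ± 0.28), arpc1b (0.84 ± 0.31), both of the actin cytoskeleton, and grna.1, a granulin gene (1.3 ± 0.51), were not called. The chemokine gene ccl19a.1 (1.3 ± 0.52) had 9.13, 10.10, 9.14 and 9.23 in females, against 8.29, 8.28, 7.81 and 8.01 in males, without overlap. The neutrophil peroxidase gene mpx ran the other way (−1.47 ± 0.42, adjusted p = 0.0951) and did so on the control diet too (−1.32 ± 0.45).

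Cell cycle genes leaned towards females on both diets. Of 55 genes, 43 were higher in females on selenium (median 0.24) and 46 on the control diet (median 0.20), with 0 called. Their mean lay between 6.54 and 6.70 in females and between 6.39 and 6.48 in males on selenium, without overlap. The replication clamp gene pcna had 10.44, 10.45, 10.35 and 10.43 in females, against 10.26, 10.25, 10.11 and 10.20 in males, a difference of 0.22 ± 0.06 on selenium (adjusted p = 0.0823) and 0.26 ± 0.06 on the control diet. The MYC target gene cdca7a (0.65 ± 0.15, adjusted p = 0.0514) and the cyclin gene ccna2 (0.58 ± 0.15) were near the threshold. The spindle genes nusap1 (0.57 ± 0.17) and mad2l1 (0.66 ± 0.24) were higher and kif20a (−0.55 ± 0.17) was lower, none of them called. With the gapdh covariate the list median was 0.11.

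Signal of tissues outside the brain was read with the same fit. Of 52 skeletal muscle genes 43 were lower in females on selenium (median −0.59, and −0.17 without male replicate 1), with ckmt2a called. The calcium pump gene atp2a1l had 5.22, 5.44, 6.26 and 6.02 in females, against 11.12, 6.95, 8.06 and 5.96 in males, so its difference of −2.29 ± 0.76 followed male replicates 1 and 3. The myosin gene smyhc1 was at 4.12 to 4.38 in females and at 4.40 to 7.80 in males. Of 41 retina and lens genes 31 were lower (median −0.66), and in the opsin gene opn1sw2 and the transducin gene gngt2b only male replicates 2 and 4 stood out, with 10.10 and 7.94 for opn1sw2 and 10.61 and 8.10 for gngt2b. Without those 2 males the retina median was 0.14, and 8 probe sets were called, leo1 and 7 others that were lower in females, among them the muscle genes atp2a1, mylpfa, smyhc1, ttn.2 and slc25a4. Leaving the muscle, retina and pineal genes out of the test gave 182 calls, 63 higher and 119 lower.

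On the control diet, 0 of 15502 probe sets (0%) were called between 3 females and 4 males, the smallest adjusted p in limma was 0.458, and 890 (5.74%) had an unadjusted p under 0.05. The test of whether the sex difference itself differed between the diets also called 0 (0%), with 1298 (8.37%) at an unadjusted p under 0.05. No sex difference was therefore shown to be particular to selenium. The median 95% half-width for that contrast was 0.37 log2 units, for a single probe set without adjustment. Shifts well above that size also went uncalled, such as those of ckmt2a (−2.41) and leo1 (−0.97), so the 0 calls do not show that such shifts are absent. The fish on the control diet share no animal with those on selenium. In them, 114 of the 162 called probe sets (70.4%) had the same sign, against 54.9% of all probe sets. Of the 162, 23 (14.2%) had the same sign and an unadjusted p under 0.05 in those fish, against 3.90% of all, and 1 had the opposite sign at that p. The median difference of the 162 on the control diet, counted in the direction seen on selenium, was 0.10. All 162 were larger on selenium, where they had been selected, so the sizes on the 2 diets cannot be set against each other. Among the genes lower or higher in females in both sets of fish were f13a1a.1 (2.57 and 2.15), dio2 (−1.12 and −0.98), elavl3 (−0.83 and −0.75), inhbaa (−0.66 and −0.53), tuba5 (1.00 and 0.58) and hmgcs1 (0.94 and 0.56). Female control replicate 3 had the largest gapdh gap on that diet (1.61). Among control females it was highest in hmgcs1 (11.22, against 10.42 and 10.46) and tuba5 (9.94, against 9.22 and 9.16). It was lowest in elavl3 (6.67, against 7.05 and 7.64). In f13a1a.1 it lay between the others (5.90, against 4.77 and 8.06), and in dio2 it was nearest the males (7.39, against 6.90 and 7.12). The part of RNA quality was not tested.

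**Figure D5:**
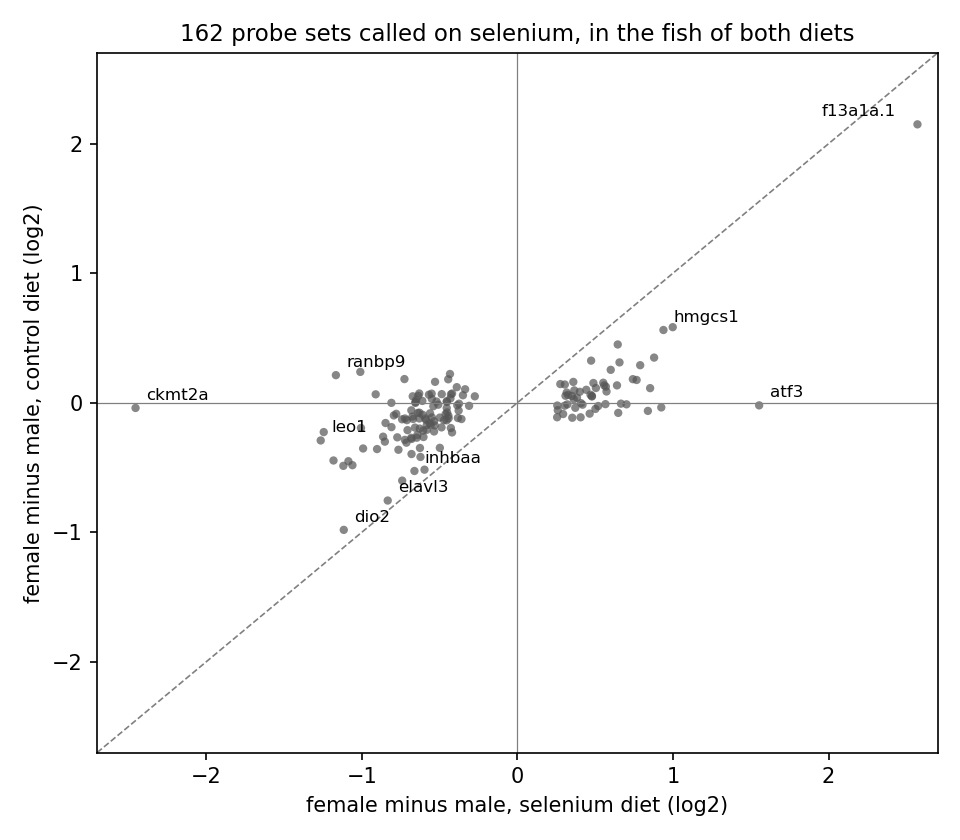
Each of the 162 called probe sets is a point, with the female minus male difference in log2 units on selenium (horizontal) and on the control diet (vertical), and the dashed line marks equal values. f13a1a.1, dio2 and elavl3 lie near the line, whereas atf3 (1.55 and −0.02) and ckmt2a (−2.45 and −0.04) lie near the horizontal axis. The points were selected on the horizontal value.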

How the data were processed

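Total RNA of whole brains was extracted with Trizol, and biotinylated cRNA was made with a 3′ one-cycle kit, per the labels' protocols. The authors deposited log2 expression values per probe set, made with RMA and affy per the submitters' processing notes; versions are not stated here, nor whether other arrays entered the normalization. Values were used as deposited. Of 15617 probe sets, 115 manufacturer controls were left out, leaving 15502, with no filter on low signal. The platform annotation gave 1 symbol to 10795, several to 135 and none to 4572; for a gene the probe set with the highest mean was taken in lists.

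limma 3.58.1 in R 4.3.3 fitted the 4 group means to all 15 arrays (11 residual degrees of freedom, empirical Bayes, two-sided tests, Benjamini-Hochberg over 15502, no covariate). The script was tested on simulated data. Precision is set by how few fish there were, with a median residual SD of 0.17 log2 units. Each fish had its own number and no batch was labelled. Among the fish on selenium, every male had a lower number than every female, whereas on the control diet the numbers of the sexes interleaved. The labels do not say what the numbers stand for. Anything that follows their order cannot be told apart from sex on selenium.

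Genes named were the 20 largest rises and 20 largest falls among called probe sets with 1 symbol, members of the steroid, reproductive, pituitary and growth factor lists, selenoproteins, the 6 or fewer best-ranked by p in every other list, and igf1, hsd17b3, inhbaa, f13a1a.1, leo1, dio1 and dio2. Others are marked as seen first, and 2 genes that met the rule are not reported here. The comparison, the 30 lists and the tests were chosen with earlier results of these data known. Alternatives changed the arrays, normalization, centring, filter, moderation, array weights and covariates. Sequences are not used here.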

Additional observations from a re-analysis of the deposited data

Results flagged for a closer look

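In groups of 4 fish, a single fish was set apart where its gap to the nearest other fish exceeded Dixon's 95% critical share of the group's range. Of 292 such groups read (the named probe sets and the means of the gene lists, females and males on selenium), 25 met this (8.6%), where chance alone gives about 1 in 20, and the values are not independent of each other.

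Female replicate 2 stood high in c1qc (7.41, the other females 5.99 to 6.10), coro1a (10.94), ccl19a.1 (10.10) and the mean of the microglia and macrophage list (8.58, the others 7.68 to 7.80), and in the retina and lens mean (6.04). It was low in dhcr7 (10.38). Female replicate 4 was low in dio2 (6.68, the others 7.24 to 7.27) and high in sp8b (8.39). Female replicate 1 was low in astn1 (8.23), smyhc1 (4.12) and rps16 (11.52), and high in tefa (7.55) and the chaperone mean (9.03). Female replicate 3 was low in tuba5 (9.40), dio1 (5.01) and pcna (10.35), and high in cry4 (9.22).

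Male replicate 4 was low in the mean of the cholesterol synthesis genes (8.09, the other males 8.49 to 8.54), which widens that difference between the sexes. Male replicate 2 was low in ssrp1a (6.37) and olig2 (9.13) and high in the reproductive axis mean (5.69). Male replicate 1 was low in the means of the mitochondrial ribosome genes (9.45) and of radial glia and astrocytes (10.35). Male replicate 3 was low in si:ch211-188c16.1 (3.85) and high in pgk1 (11.75). Without female replicate 4, dio2 was lower in females by 0.97 log2 units and still called (limma adjusted p = 0.0396).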

How the results depend on the processing

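All 162 called probe sets kept their direction in the 26 alternative fits. For 161 of them the lack of overlap fixed this in advance, except in the fits that changed the values or added covariates. The number of calls moved widely, and the cause was not tested. In the order called, higher and lower in females, the 8 arrays of the selenium diet alone gave 4, 2 and 2, and re-quantile-normalized values gave 158, 67 and 91. Arrays centred on their medians gave 227, 134 and 93. A filter on means under 5 gave 259, 96 and 163, robust moderation with a trend 229, 83 and 146, and array weights 238, 72 and 166. Muscle and retina covariates gave 0, 0 and 0, with 1303 at an unadjusted p under 0.05 and a smallest adjusted p of 0.0657. The gapdh covariate gave 1, 0 and 1, with 1383 unadjusted. Without male replicates 2 and 4 together the counts were 8, 0 and 8, and the contrast between diets called 2. Without male replicates 1, 2 and 4 they were 12, 0 and 12, and that contrast called 3; the lone male is then assumed to vary like the other groups. The brightest probe set of each gene, an alternative chosen after seeing the data, gave 87, 43 and 44.

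Leaving out 1 fish at a time gave 2 to 328 calls, 0 to 114 higher and 2 to 214 lower. The counts were 44, 70, 328 and 15 without female selenium replicates 1 to 4, 16, 4, 20 and 2 without the males on selenium, 45, 102 and 315 without the females on the control diet, and 37, 41, 56 and 40 without the males on that diet. Calls on the control diet ranged over 0 to 6, with 6 without female control replicate 3, and those of the contrast between diets were 0 in each.

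Signs turned for dio1 (0.30 ± 0.60, −0.53 with the gapdh covariate, −0.045 to 0.67 over the fits without 1 fish, lowest without male selenium replicate 3), gpx1a (0.057 with the gapdh covariate) and selenop (0.080 with it), none of which was called. For named probe sets the alternatives left the side of the threshold as it was in 2095 results, lost the call in 849 and gained one in 34. The contrasts with the control diet could not be fitted on the 8 selenium arrays. No paired analysis was possible because each fish had its own number and no label paired females with males.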
